A study of Mus musculus with 6 samples.

Results

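Cytosolic ribosomal proteins are the proteins of the large and small ribosomal subunits that translate nuclear mRNAs. Their genes were taken from the array annotation by symbol: every probe set with exactly 1 gene symbol, where that symbol begins with Rpl, Rps, Rplp or Rpsa in the form used for ribosomal proteins, without pseudogene symbols and without the S6 kinases. The rule found 63 of the 19935 genes that could be tested, 38 with a large subunit symbol and 25 with a small subunit symbol. It used no measured value. Of the 63, 54 are the canonical proteins of the ribosome, 33 of the large and 21 of the small subunit. The other 9 symbols are paralogs (Rpl3l, Rpl7l1, Rpl10l, Rpl39l, Rps4l and Rps27l), further copies of a parent gene (Rpl32l and Rps23rg1) and a protein that binds a ribosomal protein (Rps19bp1), and they are described separately. Rpl32l and Rps23rg1 were set apart from the canonical proteins after the values were seen.

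Total RNA from mouse natural killer (NK) cells was hybridised to 6 Affymetrix arrays in 1 colour, 3 for cells generated with IL-18 and 3 for unstimulated cells, from 3 independent preparations. All cells were first isolated on the surface receptor NK1.1. The IL-18 group was cultured overnight with 300 IU of IL-2 and 25 ng/ml of IL-18, an inflammatory cytokine of the IL-1 family, and then sorted as live cells positive for NK1.1 and c-kit and negative for CD3 and CD11b. The unstimulated group was sorted as live cells positive for NK1.1 and CD11b and negative for CD3 and c-kit. CD11b marks mature NK cells and c-kit is the receptor for stem cell factor, so the groups differ in the sorting gate as well as in the cytokine, and these cannot be told apart. The sources used here do not say whether the unstimulated cells were cultured with IL-2, nor the strain, sex and age of the mice. The p-values measure the spread between these 6 arrays, and in bulk RNA a change in the mix of cells and a change of RNA per cell cannot be told apart.

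Each ribosome carries 1 copy of most of these proteins, and their synthesis is coordinated. Ribosomal protein mRNAs begin with a cytosine followed by an uninterrupted run of pyrimidines, the terminal oligopyrimidine (TOP) tract, through which the kinase complex mTORC1 and the RNA-binding protein LARP1 set how much of each mRNA is translated. An array measures the mRNA and not its translation. Lymphocytes that leave the resting state enlarge and make more ribosomes before they divide, which requires ribosomal proteins, ribosomal RNA and assembly factors together.

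The sequences around the annotated transcript starts show runs of pyrimidines. RefSeq promoter windows (GRCm38.p6, 250 bases before to 50 after the annotated start) were matched by symbol for 51 of the 63 genes, 43 of them canonical. The lines give 15 bases on each side of the start, 5′ to 3′ on the gene's own strand, with the longest run of C or T in capitals. The first 4 belong to genes that rose, the next 3 to genes that did not pass the test, and the last to a gene that rose and has no such run. They were chosen after the values were seen, to show such runs in genes of both outcomes. A run need not begin at the annotated start: that of Rpl4 ends before it, and whether a run lies in the mRNA was not tested.
Rpl14 (chr9:120571502-120571531, + strand): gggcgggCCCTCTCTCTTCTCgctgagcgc
Rpl7a (chr2:26910792-26910821, + strand): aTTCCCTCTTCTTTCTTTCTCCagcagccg
Rpl4 (chr9:64173372-64173401, + strand): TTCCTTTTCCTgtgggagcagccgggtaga
Rps18 (chr17:33955651-33955680, - strand): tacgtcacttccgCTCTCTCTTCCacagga
Rpl27a (chr7:109519180-109519209, + strand): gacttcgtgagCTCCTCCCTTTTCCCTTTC
Rpl38 (chr11:114668565-114668594, + strand): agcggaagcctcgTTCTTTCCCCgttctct
Rps6 (chr4:86857353-86857382, - strand): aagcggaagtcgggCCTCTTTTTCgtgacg
Rps3 (chr7:99483695-99483724, - strand): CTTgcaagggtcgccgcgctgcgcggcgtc

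A run of at least 8 C or T within 20 bases on either side of the start stood in 18 of the 43 canonical genes with a window, or 41.9%, against 18.4% of the 15612 tested genes with a window. Among the canonical genes that rose in IL-18 cells 13 of 32 had the run, and among those that did not pass the test 5 of 11. The letters GGAAGT are the core bound by ETS factors such as GABPA. They stood on either strand of a 300-base window in 23 of the 43 canonical genes (53.5%). Of all tested genes with a window 27.9% had them. A gene with several windows counted if any of them matched. They stood in 17 of the 32 genes that rose and in 6 of the 11 that did not pass. Their reverse complement ACTTCC can overlap a run of C or T. AAGATGG, the core of the YY1 motif, stood in 4 of the 43 canonical genes, and all 4 are among the 32 that rose. Of all tested genes with a window 7.28% had it. These matches are letters in a window, and the shares of the genes that rose and of those that did not were not tested against each other.

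The values are the deposited log2 expression of each probe set relative to its own median over the 6 arrays, so they compare arrays within a gene and hold no level. A gene's value is the mean of its probe sets. A change is the mean of the IL-18 arrays minus the mean of the unstimulated arrays on the log2 scale, given with its standard error (SE) from a limma fit over all 19935 genes. A gene is said to rise or fall where its Benjamini-Hochberg adjusted p is below 0.05.

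Ribosomal protein mRNAs were higher in the IL-18 cells, by a small amount in both subunits. Of the 63 genes, 42 rose and 1 fell, and 20 did not pass the test. Over all genes tested 19.7% rose and 16.7% fell, 36.4% in either direction. The median change of the 63 was 0.33, against -0.06 for all genes, with a range from -0.34 to 1.93. The change was positive for 59 of them. All 3 IL-18 arrays lay above all 3 unstimulated arrays for 48 genes, a separation that 22.9% of all genes had, and all 3 lay below for 1 gene (25.7% of all genes; 48.6% were separated in either direction). The sizes were modest: 19 of the 63 rose by at least 0.5 (11.3% of all genes did), and only Rpl12 and Rps27l by at least 1 (3.62% of all genes did). Among the 54 canonical proteins 39 rose and none fell, 15 missed the threshold, and the median change was 0.34. Rps23rg1, the gene that fell, was set apart from these after the values were seen.

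**Figure D1:**
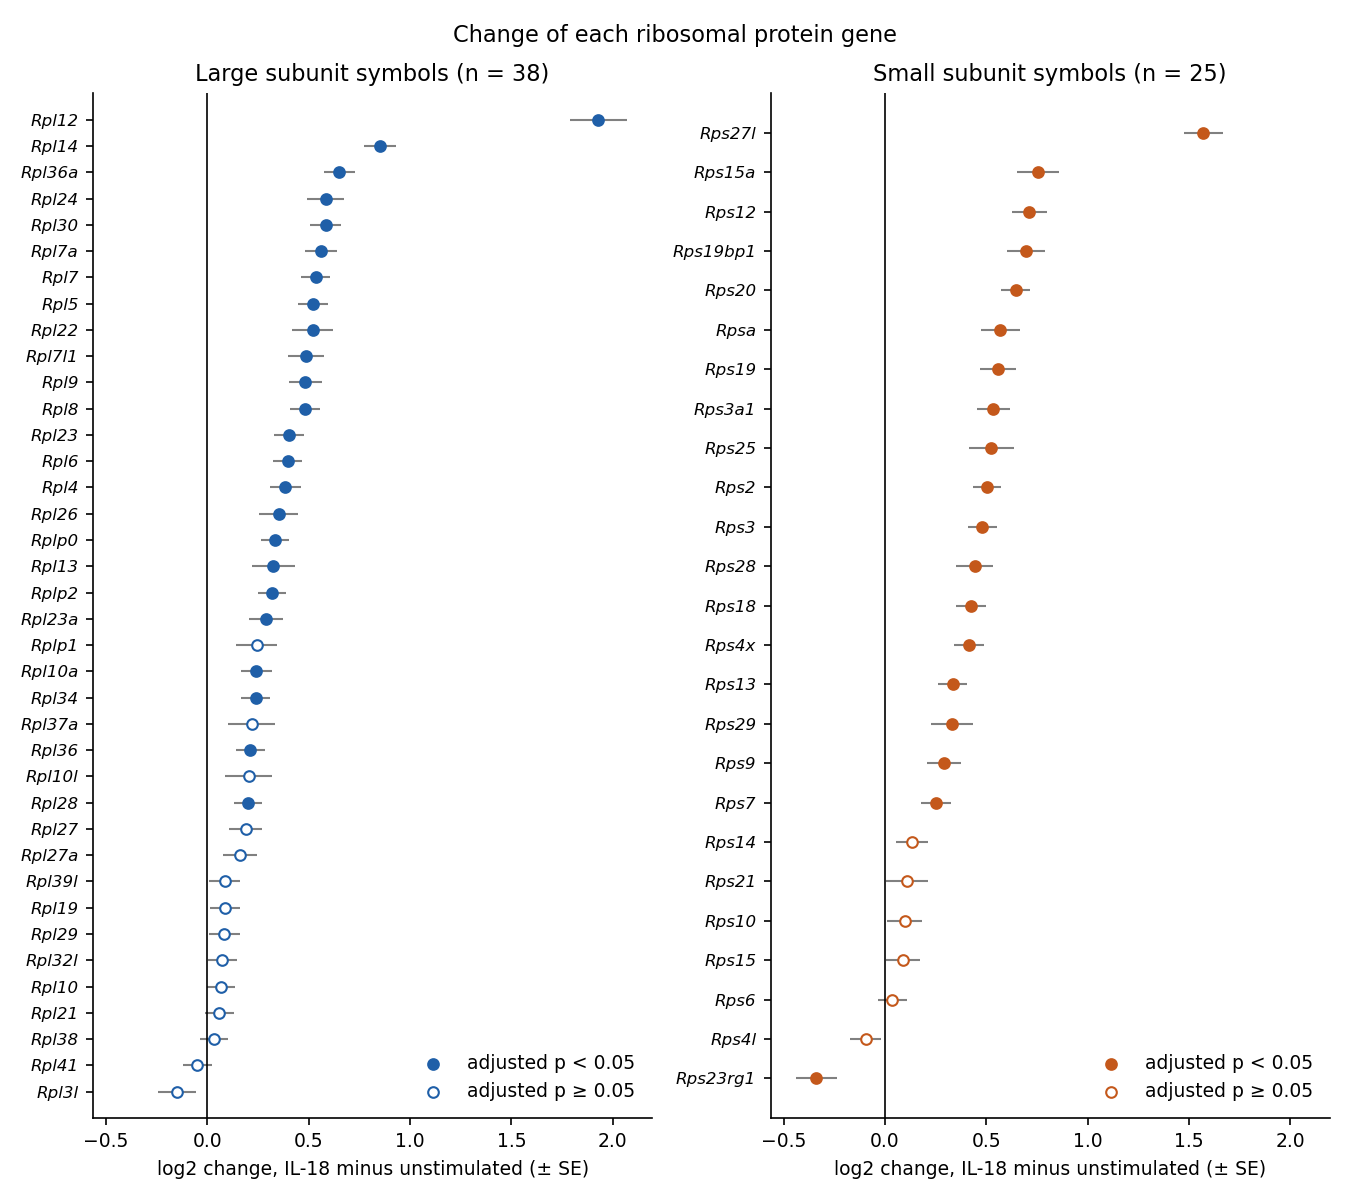
Log2 change (IL-18 minus unstimulated, x axis) of each of the 63 ribosomal protein genes, with large subunit symbols on the left and small subunit symbols on the right, sorted by change; points are the limma estimate, bars ± 1 SE, filled points adjusted p below 0.05. Most genes lie between 0 and 0.85, Rpl12 (1.93) and Rps27l (1.57) stand to the right, and Rps23rg1 (-0.34) is the only filled point below 0.

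The large and small subunit shifted in the same direction. Of all genes 19.7% rose and 16.7% fell, with a median change of -0.06. Of the 38 large subunit symbols 24 rose (63.2%) and none fell, with a median change of 0.30. Of the 25 small subunit symbols 18 rose (72%) and Rps23rg1 fell, with a median change of 0.42. Among canonical proteins 23 of 33 large subunit genes rose (median 0.33, range -0.05 to 1.93) and 16 of 21 small subunit genes rose (median 0.42, range 0.036 to 0.75). No canonical gene of either subunit fell, a count that leaves out Rps23rg1, which was set apart after the values were seen. The SD of the changes among genes was 0.35 for canonical large and 0.21 for canonical small subunit genes. The SD of the large subunit includes Rpl12 at 1.93, a value from 1 probe set that lists no RefSeq mRNA. The difference between the medians of the subunits was not tested.

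The same picture held array by array. The median over large subunit symbols was 0.17, 0.15 and 0.13 on the IL-18 arrays and -0.10, -0.15 and -0.21 on the unstimulated arrays. The median over small subunit symbols was 0.26, 0.19 and 0.15 on the IL-18 arrays and -0.15, -0.21 and -0.26 on the unstimulated arrays. In both subunits each IL-18 array stood above each unstimulated array. As means of the array medians these are 0.15 ± 0.020 (SD, n = 3) against -0.15 ± 0.055 for the large and 0.20 ± 0.054 against -0.21 ± 0.053 for the small subunit. The root mean square difference over the 63 genes was 0.11 to 0.18 between arrays of 1 group and 0.48 to 0.57 between arrays of different groups. Over all genes tested it was 0.16 to 0.23 and 0.57 to 0.63, so the separation of the groups is one of whole arrays. Single genes varied, and the groups overlapped in 14 of the 63. Of all genes 48.6% had groups that did not overlap, in either direction.

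**Figure D2:**
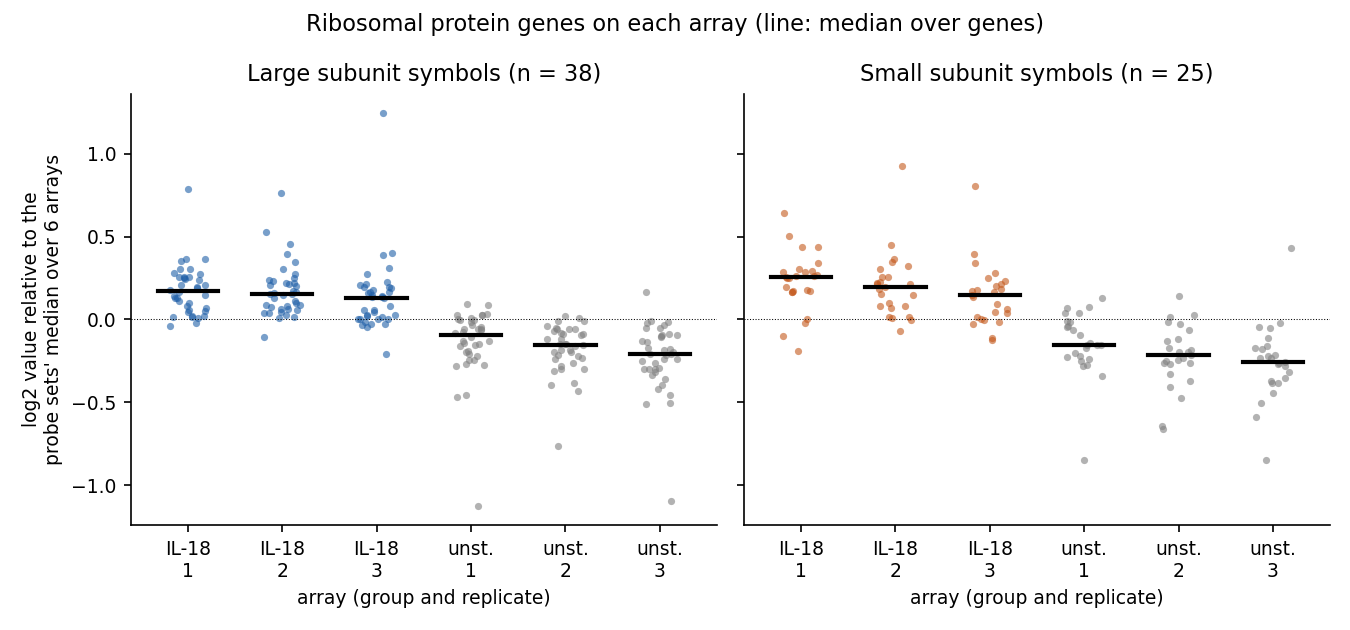
Log2 value relative to the probe sets' median over the 6 arrays (y axis) of every ribosomal protein gene on each array (x axis: IL-18 replicates 1 to 3, unstimulated replicates 1 to 3), large subunit symbols left and small subunit symbols right; each point is a gene and the bar is the median over genes. The medians of the IL-18 arrays lie between 0.13 and 0.26 and those of the unstimulated arrays between -0.26 and -0.10, while single genes overlap.

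The stalk is the flexible arm of the large subunit that recruits translation factors. Its base protein Rplp0 stood at 0.14, 0.15 and 0.18 on the IL-18 arrays and at -0.14, -0.20 and -0.19 on the unstimulated arrays, a rise of 0.33 ± 0.070 (SE; adjusted p = 0.00335). Rplp2, one of the acidic proteins that dimerise on it, stood at 0.13, 0.20 and 0.16 against -0.13, -0.16 and -0.18, a rise of 0.32 ± 0.070 (adjusted p = 0.00446). In both genes the groups do not overlap. Its partner Rplp1 stood at 0.19, 0.10 and -0.035 against 0.027, -0.20 and -0.30, so IL-18 array 3 lay below unstimulated array 1. Its change of 0.24 ± 0.10 did not pass (adjusted p = 0.0865). It passed without unstimulated replicate 1, at 0.34 with an adjusted p of 0.0267, and when its probe set of wider spread stood for the gene, at 0.37 with an adjusted p of 0.0247. With the replicate number as a block its adjusted p was 0.0447.

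Rpl12, which binds ribosomal RNA at the base of the stalk, had the largest change of the 63 genes. It stood at 0.79, 0.76 and 1.25 on the IL-18 arrays and at -1.13, -0.76 and -1.10 on the unstimulated arrays. The rise of 1.93 ± 0.14 is a fold of 3.80 (adjusted p = 2.38e-06), and the groups lie far apart. This value comes from 1 probe set, whose annotation lists 1 clone accession and no RefSeq mRNA. A further probe set that lists the same clone beside the small nucleolar RNA Snora65 changed by 1.50. The 7 probe sets that list the RefSeq mRNA of Rpl12, together with the provisional gene Gm32899, changed by only 0.31 to 0.36, with a median of 0.32, and in all 7 the IL-18 arrays lay above the unstimulated arrays. That median is close to the values of Rplp0 and Rplp2, although the only probe set of Rplp2 also lists no RefSeq mRNA. Which of the Rpl12 probe sets follows its protein-coding mRNA was not tested.

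**Figure D3:**
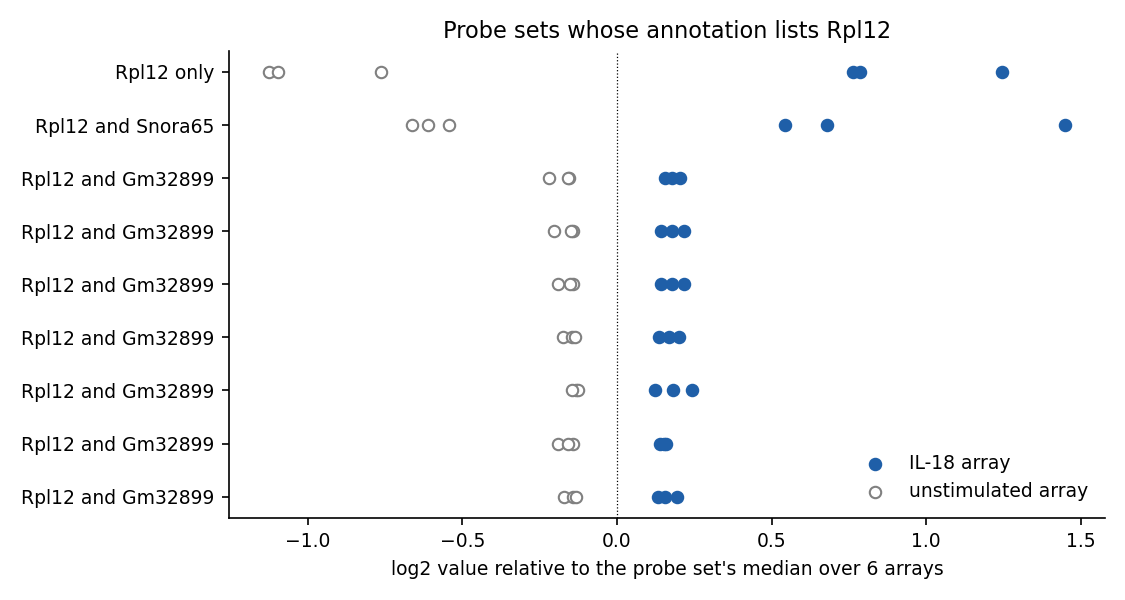
Log2 value relative to each probe set's median (x axis) on the 3 IL-18 arrays (filled) and the 3 unstimulated arrays (open) for the 9 probe sets whose annotation lists Rpl12, 1 row each. The probe set with Rpl12 as its only symbol (change 1.93) and the one shared with Snora65 (1.50) are far wider than the 7 shared with Gm32899 (0.31 to 0.36).

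Rpl5 carries the 5S ribosomal RNA into the large subunit together with Rpl11, and outside the ribosome the same particle binds the p53 regulator Mdm2. Rpl5 stood at 0.26, 0.31 and 0.22 on the IL-18 arrays and at -0.28, -0.22 and -0.29 on the unstimulated arrays, without overlap. It rose by 0.52 ± 0.072 (adjusted p = 0.00021), and its 5 probe sets changed by 0.49 to 0.55. Rpl11 was listed only in probe sets with further symbols and has no value of its own here.

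Of the proteins at the tunnel through which the nascent chain leaves, 3 of the 4 measured rose (75%). Of all canonical genes 72.2% rose, and of all genes 19.7%. Rpl4, whose loop forms the constriction of the tunnel, stood at 0.30, 0.21 and 0.13 against -0.13, -0.19 and -0.20 and rose by 0.38 ± 0.077 (adjusted p = 0.0024). Rpl26 rose by 0.35 ± 0.095 (adjusted p = 0.0144) and Rpl23a, at the exit where the signal recognition particle docks, by 0.29 ± 0.084 (adjusted p = 0.0204). For these 3 genes the IL-18 arrays were all above the unstimulated arrays. The calls of Rpl26 and Rpl23a did not hold without IL-18 replicate 1 (adjusted p = 0.0637 and 0.0876), and that of Rpl23a also not without IL-18 replicate 2 (0.0649) or unstimulated replicate 3 (0.0728). Rpl19, also at the exit, stood at 0.045, 0.014 and 0.00066 against 0.011, -0.069 and -0.14, and its change of 0.085 ± 0.074 did not pass (adjusted p = 0.4).

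Beside Rpl12 the largest rises in the large subunit were in Rpl14 and Rpl36a. Rpl14, a protein found in eukaryotic but not bacterial ribosomes, stood at 0.36, 0.53 and 0.40 on the IL-18 arrays and at -0.47, -0.43 and -0.36 on the unstimulated arrays. The rise of 0.85 ± 0.078 is a fold of 1.81 (adjusted p = 1.16e-05), and the groups are separated by more than the range within either. Rpl36a, which lies where the deacylated tRNA leaves, stood at 0.28, 0.40 and 0.31 against -0.27, -0.40 and -0.30 and rose by 0.65 ± 0.076 (adjusted p = 6.5e-05). Its own 2 probe sets changed by 0.63 and 0.68.

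In the small subunit the largest rises among canonical proteins were in Rps15a, Rps12 and Rps20. Rps15a, the counterpart of bacterial S8, which joins early in assembly, stood at 0.25, 0.25 and 0.34 against -0.25, -0.66 and -0.51 and rose by 0.75 ± 0.10 (adjusted p = 0.000199). Rps12, in the beak of the subunit, stood at 0.51, 0.45 and 0.25 against -0.28, -0.27 and -0.38 and rose by 0.71 ± 0.087 (adjusted p = 9.13e-05). Rps20, in the head, stood at 0.31, 0.31 and 0.28 against -0.28, -0.37 and -0.38 and rose by 0.64 ± 0.072 (adjusted p = 4.62e-05). Every IL-18 array lay above every unstimulated array in all 3 genes. Within the groups, unstimulated array 1 was the highest of its group for Rps15a and IL-18 array 3 the lowest of its group for Rps12. All 13 probe sets of Rps12 changed by 0.67 to 0.76.

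Proteins of the mRNA channel and decoding region rose in 5 of 7 measured cases (71.4%). This is near the share of all canonical genes that rose, 72.2%, against 19.7% of all genes. Rps2 and Rps3 sit at the entry of the channel. Rps2 rose by 0.50 ± 0.069 (adjusted p = 0.000207) and Rps3 by 0.48 ± 0.071 (adjusted p = 0.000352). Rpsa, also known as a laminin receptor, and Rps28 lie near the exit of the channel. Rpsa rose by 0.57 ± 0.095 (adjusted p = 0.000779) and Rps28 by 0.44 ± 0.091 (adjusted p = 0.00308). Rps18, in the head, rose by 0.42 ± 0.073 (adjusted p = 0.000985). In all 5 the groups do not overlap. Rps14, on the platform, and Rps15, in the head near the decoding site, had changes of 0.13 ± 0.078 (adjusted p = 0.216) and 0.088 ± 0.083 (adjusted p = 0.434) and did not pass. For Rps15 the unstimulated arrays spanned -0.22 to 0.037, on both sides of the 3 IL-18 values between 0.000052 and 0.014.

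The 15 canonical proteins that did not pass the test had changes from -0.05 to 0.24. They include Rps6, the protein phosphorylated by the S6 kinases under mTORC1, which stood at -0.022, 0.083 and 0.0050 on the IL-18 arrays and at -0.0071, 0.017 and -0.050 on the unstimulated arrays. The groups are interleaved, and the change was 0.036 ± 0.072 (adjusted p = 0.731). Its 8 probe sets changed by -0.011 to 0.070. Rpl38, which is needed for translation of Hox mRNAs in the mouse embryo, changed by 0.031 ± 0.069 (adjusted p = 0.757), and its 4 probe sets by 0.0045 to 0.052. Rpl10, which joins the large subunit last and is needed for its activation, stood at 0.0075, 0.046 and 0.029 against -0.058, -0.0065 and -0.054, with a change of 0.067 ± 0.070 (adjusted p = 0.482) that all 6 of its probe sets shared, at 0.058 to 0.085. Rpl41, the smallest protein of the ribosome, was the only canonical member with a negative estimate, -0.05 ± 0.073 (adjusted p = 0.621). Its 2 probe sets shared with further symbols had the opposite sign, at 0.068 and 0.088. A missed threshold does not show that these mRNAs were level. The highest of the 15, Rplp1 at 0.24, lies above some genes that passed, such as Rpl28 at 0.20 ± 0.069 (adjusted p = 0.0467), which was chosen after its value was seen. Rps6, Rpl38 and Rpl41 were chosen for naming after their values were seen.

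Paralogs and other symbols outside the canonical ribosome gave a mixed result. Of these 9 symbols 3 rose and 1 fell, 5 missed the threshold, and the median change was 0.086. The change was positive for 6 of them. The 9 include Rps23rg1, the gene that fell, and Rpl32l, which were set apart after the values were seen. Among the 7 symbols without these, 3 rose (42.9%) and none fell, with a median change of 0.20. Over all genes 19.7% rose and 16.7% fell. Rps27l, a paralog of Rps27 known as a target of p53, rose most. It stood at 0.64, 0.93 and 0.81 on the IL-18 arrays and at -0.85, -0.64 and -0.85 on the unstimulated arrays, a rise of 1.57 ± 0.096 or a fold of 2.97 (adjusted p = 7.66e-07). The gap between the groups is larger than the range within either. Its parent Rps27 was listed only in probe sets with further symbols, so it has no value of its own. The 2 probe sets that list Rps27 together with Rps27rt changed by -0.19 each (adjusted p = 0.232 and 0.253 over all probe sets) and did not pass.

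Rps19bp1 encodes a nucleolar protein that binds Rps19 and the deacetylase SIRT1. It stood at 0.44, 0.22 and 0.40 against -0.34, -0.48 and -0.22 and rose by 0.70 ± 0.093 (adjusted p = 0.000167). Rps19 itself, which is mutated in Diamond-Blackfan anaemia, stood at 0.44, 0.35 and 0.17 against -0.23, -0.33 and -0.17 and rose by 0.56 ± 0.089 (adjusted p = 0.000576). Neither gene had overlapping groups. For Rps19 the 3 probe sets shared with further symbols changed more than its own, by 0.83 to 0.87.

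Rpl7l1, a nucleolar paralog of Rpl7 that acts in large subunit assembly, and Rpl7 both rose. Rpl7l1 stood at 0.18, 0.16 and 0.21 against -0.45, -0.16 and -0.30, a rise of 0.49 ± 0.088 (adjusted p = 0.00133). Rpl7 stood at 0.28, 0.35 and 0.23 against -0.25, -0.24 and -0.26, a rise of 0.53 ± 0.072 (adjusted p = 0.000184). The groups are separate in both. Rpl10l, the copy of the X-linked Rpl10 that serves the male germ line, stood at -0.022, 0.46 and 0.058 against -0.11, 0.022 and -0.031. Only IL-18 array 2 was clearly higher, and the change of 0.20 ± 0.12 did not pass (adjusted p = 0.21), as that of Rpl10 did not.

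Rps4x, the X-linked small subunit protein, stood at 0.26, 0.23 and 0.15 against -0.14, -0.23 and -0.24 and rose by 0.41 ± 0.074 (adjusted p = 0.00123). Its autosomal paralog Rps4l stood at -0.10, -0.0015 and -0.13 against 0.076, 0.029 and -0.048. The groups of Rps4l overlap, and its change was -0.095 ± 0.076 (adjusted p = 0.361). Its 2 probe sets disagreed, at -0.29 and 0.099, and the one with the wider spread alone passed the test (adjusted p = 0.0119). Neither of them lists a RefSeq mRNA. The difference between the changes of parent and paralog was not tested.

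Rps23rg1, a mouse retrogene copy of Rps23, was the only member that fell. It stood at -0.19, -0.070 and -0.11 on the IL-18 arrays and at 0.070, 0.14 and 0.43 on the unstimulated arrays. The groups do not overlap, but unstimulated array 3 stands apart from the other 2 of its group. The change was -0.34 ± 0.10 (adjusted p = 0.022). Without unstimulated replicate 3 it was -0.23 with an adjusted p of 0.0694, and the call was also lost without IL-18 replicate 1 (0.0756) or IL-18 replicate 3 (0.0503). Rpl3l, the paralog of striated muscle, and Rpl39l, of the testis, had changes of -0.15 ± 0.094 (adjusted p = 0.238) and 0.086 ± 0.076 (adjusted p = 0.407).

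Ribosomal protein genes have many near-identical processed copies in the mouse genome, so a probe set can read more than 1 locus, and the share of signal from such copies was not tested. Where a gene had several probe sets of its own, as 39 of the 63 did, their changes spanned a median of 0.073 and at most 0.41. The widest span was in Rps2, from 0.36 to 0.77. Probe sets of 1 gene need not be independent measurements: the 3 of Rpl41 changed by -0.05014 to -0.05003. How far they read the same sequence was not tested. Of the 19 members that also appear in probe sets with further symbols, 18 had the same sign in both kinds, the exception being Rpl41, and 15 agreed within 0.2. The other 4 were Rpl12, Rps19, Rps13 and Rpl13. The change also varied with the number of probe sets. The 16 canonical genes with 1 probe set had a median change of 0.50 and 14 of them rose (87.5%). The 38 with several had a median of 0.31 and 25 of them rose (65.8%), where 19.7% of all genes rose. Spearman rho of change and number of probe sets across the 54 genes was -0.29, a description over genes that share the arrays. The part of the number of probe sets in the changes was not tested.

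Other genes of the pathway set the size of these changes in context. The mitochondrial ribosomal proteins, which serve the separate ribosome of the mitochondrion, rose in 60 of 77 cases (77.9%) with none lower and a median change of 0.56. Of all genes 19.7% rose and 16.7% fell, with a median change of -0.06. In the mitochondrial large subunit 38 of 48 rose (79.2%, median 0.59) and in the small subunit 22 of 29 (75.9%, median 0.51). A list of 25 ribosome assembly genes, which includes the RNA polymerase I subunit Polr1b, was chosen with earlier results of these data known. All 25 rose, with a median of 1.41, where 19.7% of all genes rose. The largest were Nop58, a protein of box C/D small nucleolar particles, at 2.07 ± 0.12, and Tsr1, a factor of late small subunit maturation, at 2.06 ± 0.084. The lowest change in the assembly list, 0.71, is that of Bop1, named after its value was seen, and lies beside that of Rps12.

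Dedicated chaperones hold ribosomal proteins before they join the ribosome. Of 8 measured, 6 rose (75%, against 19.7% of all genes), with a median of 0.81. Ltv1, an export and assembly factor that binds beside Rps3 and Rps20, rose by 1.64 ± 0.083, and Grwd1, the chaperone of Rpl3, by 1.41 ± 0.077. Members whose chaperone was measured, chosen after their values were seen, are given with it. Heatr3, which carries Rpl5 and Rpl11, rose by 0.66 ± 0.074 against 0.52 for Rpl5. Bccip, the chaperone of Rpl23, rose by 0.96 ± 0.086 against 0.40 for Rpl23. Pdcd2, the chaperone of Rps2, rose by 0.39 ± 0.085 against 0.50 for Rps2. Aamp, the relative of the yeast chaperone of Rpl10, did not pass at 0.20 ± 0.092 (adjusted p = 0.121), nor did Rpl10.

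TOP mRNAs that encode no ribosomal protein gave a mixed result. Of 13 measured, 6 rose (46.2%, against 19.7% of all genes) and none fell, with a median change of 0.088. Npm1, the nucleolar protein nucleophosmin, rose by 1.72 ± 0.12 and Nap1l1, a histone chaperone, by 1.01 ± 0.093. The elongation factors Eef1a1 and Eef2, named after their values were seen, had changes of -0.0069 ± 0.070 (adjusted p = 0.947) and 0.050 ± 0.069 (adjusted p = 0.602), close to those of Rps6 and Rpl38. Eef1a1 has no settled direction, since its estimate was positive (0.013 and 0.025) after quantile normalization or after centring each array. Fau, whose product is a fusion of a ubiquitin-like domain with the ribosomal protein S30, lies outside the symbol rule and had a change of -0.15 ± 0.080 (adjusted p = 0.175).

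**Figure D4:**
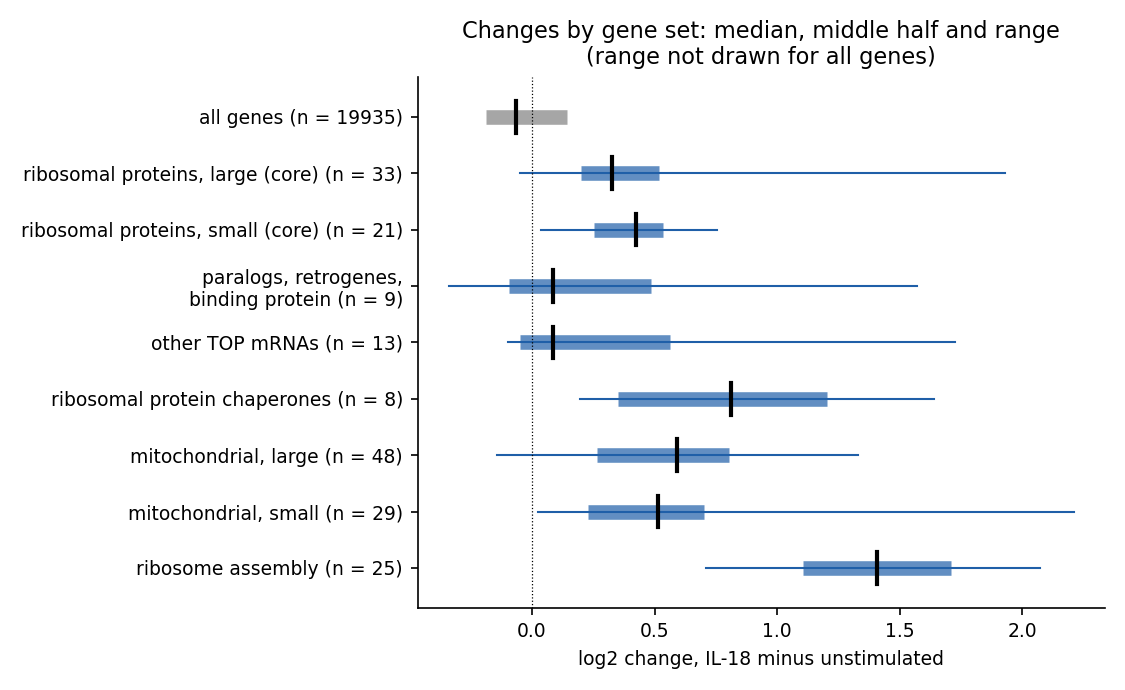
Log2 change (x axis) by gene set: the black bar is the median over genes, the thick bar the interquartile range and the thin line the range (not drawn for all genes), with the number of genes beside each name. The medians of canonical large (0.33) and small subunit proteins (0.42) lie to the right of that of all genes (-0.06). They lie to the left of the medians of the mitochondrial ribosomal proteins (0.59 and 0.51) and the assembly list (1.41). The interquartile ranges of canonical and mitochondrial proteins overlap, at 0.20 to 0.52 and 0.27 to 0.80 for the large and 0.25 to 0.53 and 0.23 to 0.70 for the small subunit.

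Among regulators of ribosomal protein synthesis 5 of 10 rose and 1 fell (19.7% of all genes rose and 16.7% fell). Eif4ebp1, an mTORC1-controlled inhibitor of cap-dependent translation, rose by 1.81 ± 0.088, and Myc, a transcription factor that drives genes of ribosome synthesis, by 1.77 ± 0.12. Eif4ebp2, the sister inhibitor, fell by 0.53 on the log2 scale (SE 0.077; adjusted p = 0.000297). Larp1, which binds the TOP tract, rose by 1.08 ± 0.081 and was named after its value was seen.

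Markers of other cell types also moved between the groups. Over all genes 19.7% rose and 16.7% fell. Monocyte markers fell in 6 of 6 cases, and their mean was 1.25 to 1.80 on the unstimulated arrays and -1.51 to -1.27 on the IL-18 arrays. Neutrophil markers fell in 7 of 7 cases, with means of 1.18 to 2.50 against -1.35 to -1.12. B cell markers fell in 4 of 4 cases, with means of 0.063 to 0.59 against -0.34 to -0.11. T cell markers rose in 3 of 5 cases, the CD3 chains, with means of -0.41 to -0.17 on the unstimulated and 0.26 to 0.71 on the IL-18 arrays. The NK markers Ncr1, Klrb1c, Nkg7, Eomes and Tbx21 fell in 5 of 5 cases, with means of 0.54 to 0.76 against -0.72 to -0.60. Centred values give no level, so whether any marker was at 0 could not be read. Both groups were sorted as CD3 negative, and T cells carry CD3. The IL-18 group was sorted as CD11b negative and the unstimulated group as CD11b positive, and monocytes and neutrophils carry CD11b. The part of these gates in the marker changes was not tested. The part of monocytes, neutrophils, B cells and T cells in the ribosomal protein changes was not tested either.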

How the data were processed

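The deposited table holds log2 values of the authors for 28815 probe sets on 6 arrays. The sources used here do not give the summarization, the normalization or the log base, and the base was read from the values: the widest range of a probe set, 7.77, exceeds the 4.82 that log10 of a 16-bit scanner allows. Among values above 8, natural logarithms allow a range of at most 3.09, which 239 probe sets exceed, and 42 of these carry the single-precision rounding of values above 8. The values of a probe set have a median of 0 over the arrays (largest departure 5e-07). Names came from the platform annotation (21780 probe sets with 1 symbol, 1605 with several, 5430 with none listed), and the Entrez identifiers of all 63 members were found in RefSeq. Probe sets were averaged per gene, and a limma 3.58.1 fit (R 4.3.3, lmFit, then eBayes with no trend and no covariate) compared the groups. The procedure was tested on simulated data. Tables and figures used Python 3.11.15, pandas 2.3.3 and matplotlib 3.10.9.

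Members and lists were chosen with earlier results of these data known. Named with full values are the 8 largest rises and the falls (up to 8) among members that passed and the pairs of parent and paralog. Members of the role lists may be named, and in each related list up to 2 genes in each direction. For arrays, their number limits the precision. The alternatives covered normalization, array weights, probe sets, membership, replicates and the replicate number as a block. The deviations of samples with the same number correlated by 0.24, 0.0076 and -0.020. Only the first is over 0.1, and the main fit did not take the numbers as pairs. No correlations of samples with different numbers stand beside them, so these values cannot decide whether the numbers are pairs.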

Additional observations from a re-analysis of the deposited data

Results flagged for a closer look

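A signal stood in probe sets that the gene values leave out. Of 239 probe sets whose annotation names a ribosomal protein beside further symbols, 133 were higher in the IL-18 arrays and 1 was lower at an adjusted p below 0.05 in a limma fit over all 28815 probe sets, in which 18.5% were higher and 14.2% lower. Their median change was 0.28, with a range from -1.03 to 1.50, against a median of 0.31 for the 218 probe sets with a ribosomal protein as their only symbol. They name 39 ribosomal protein symbols, 20 of which have no probe set of their own, among them Rpl3, Rpl11, Rps16, Rps24 and Rps26. Many repeat 1 gene that is already a measured member: 35 name Rpl29, 32 Rpl21, 17 Rpl7a and 17 Rps2. The 133 is therefore a count of probe sets and not of separate genes. In the 91 that name no measured member, 62 were higher and 1 lower, with a median of 0.30. Such a value belongs to no single gene.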

How the results depend on the processing

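Of the 43 calls, 32 were the same under all of the 14 alternatives that gave the gene a value. The 11 others (Rpl10a, Rpl13, Rpl23a, Rpl26, Rpl28, Rpl34, Rpl36, Rps7, Rps9, Rps29 and Rps23rg1) lost the call in at least 1. Leaving out 1 array at a time gave 33 to 41 genes that rose, 0 to 1 that fell, and a large subunit median of 0.26 to 0.33. With the replicate block 40 rose and 1 fell, with Rpl28, Rpl10a and Rpl36 lost and Rplp1 gained.

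With genes of 1 probe set only, 17 of 24 rose and the small subunit median was 0.60. With the probe set of widest spread for each gene, 2 fell (Rps4l in addition), Rplp1 rose, the small subunit median was 0.49 and Rps6 turned to -0.0025. An added minimum log2 change of 0.5 left 19 that rose and 0 that fell. Leaving out paralogs, further copies and the binding protein, an alternative chosen after seeing the data, left 0 that fell. Restricting to probe sets that list a RefSeq mRNA, also chosen after seeing the data, left 39 of 59 that rose and removed the wide Rpl12 value. Eef1a1, which did not pass, turned to 0.013 with quantile normalization and 0.025 with centred arrays. Leaving out 1 array at a time gave -0.026 to 0.0078 for Eef1a1 and -0.11 to 0.0022 for Rptor, another gene that did not pass, both positive without IL-18 replicate 2. The cause of these moves was not tested.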

Other observations

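Several ribosomal protein genes carry small nucleolar RNAs in their introns, and 5 probe sets name such an RNA beside its host. The probe set of Rps13 and Snord14a changed by 1.02 ± 0.20 (SE; limma over all probe sets, adjusted p = 0.00357), at 0.27, 0.37 and 0.88 on the IL-18 arrays and -0.37, -0.90 and -0.27 on the unstimulated arrays, whereas the 3 probe sets with Rps13 alone changed by 0.32 to 0.35. That of Rpl12 and Snora65 changed by 1.50 ± 0.20 (adjusted p = 0.000476). That of Rpl13a and Snord32a changed the other way, by -1.03 ± 0.29 (adjusted p = 0.0243), at 0.017, -0.65 and -1.21 against 0.56, 0.72 and -0.017. The probe sets of Rpl13a with Snord34 (0.059 ± 0.14, adjusted p = 0.789) and of Rpl13 with Snord68 (0.017 ± 0.17, adjusted p = 0.951) did not pass, while the 9 probe sets with Rpl13 alone changed by 0.30 to 0.36. The values differed widely between arrays of 1 group, and which transcript each probe set reads was not tested.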
